A study of Homo sapiens with 4 samples.

Results

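Toll-like receptors are the innate immune receptors by which myeloid cells sense microbial products. TLR2 pairs with TLR1 or TLR6 to bind bacterial lipopeptides, TLR4 binds lipopolysaccharide together with the secreted protein MD-2 (the product of LY96) and the coreceptor CD14, TLR5 binds flagellin, and TLR8 senses RNA inside endosomes. All of these receptors signal through the adaptor MYD88, which assembles kinases of the IRAK family, and IRAK3 (also called IRAK-M) is a family member that restrains this signal in monocytes and macrophages. The genes described here are 10 members of this system, taken by name: TLR1, TLR2, TLR4, TLR5, TLR6, TLR8, CD14, LY96, MYD88 and IRAK3. Of these, 9 were analysed among the 18567 genes of the table, and CD14 was not analysed here.

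The levels come from RNA sequencing of Kasumi-1, a cell line established from acute myeloid leukemia (AML), with the RUNX1-RUNX1T1 fusion. There were 2 NC samples, which the labels describe as untreated and without a hairpin, and 2 sh-ANP32B samples, in which ANP32B, a histone-binding nuclear phosphoprotein, was knocked down by short hairpin RNA. The sh-ANP32B samples are also called the knockdown. The study's methods describe a control hairpin and puromycin selection, so what the NC samples carried, and which ANP32B hairpin each sh-ANP32B sample carried, is not settled. Both groups are the same line, and the study states in general that experiments were performed independently, but no source says whether these samples of a group were separate cultures, so p-values measure the spread between these samples, which may be technical.

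Levels are in TPM, a unit scaled by transcript length and by the total of each sample. Columns summed to between 997812 and 998314, and TPM keeps no depth, so the depth behind each value is unknown. The targeted gene, ANP32B, measured 383.8 and 392 TPM in NC against 51.8 and 41.2 TPM in the knockdown (log2 change -3.04, SE 0.150, limma adjusted p 0.00516). Mitochondrial transcripts made up between 11.4% and 13.1% of 3 samples and 8.43% of sh-ANP32B replicate 2. Of the blast markers listed for the line, KIT, a receptor of progenitors, was low, between 1.55 and 3.41 TPM, and CD34 and MPO were not analysed here. The lymphoid marker CD79A measured 1.29 and 1.15 TPM in NC against 2.17 TPM in knockdown replicate 2, and replicate 1 lists it at 0. None of the 4 erythroid and 5 stromal and epithelial markers was analysed here.

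The window upstream of TLR6 is shown because TLR6 is the gene of this system with the clearest difference between the groups. The windows of TLR8 and TLR5 are shown because these receptors, which were not called, were also low in NC (means 0.718 and 0.776 TPM, against 1.68 TPM for TLR6). Each is the 250 bases before the gene start, 5′ to 3′ on the gene's strand, from RefSeq (GRCh38.p14), at chr4:38856818-38857067 (minus strand) for TLR6, chrX:12906370-12906619 (plus strand) for TLR8 and chr1:223143249-223143498 (minus strand) for TLR5. Capitals mark matches, on either strand, to GAGGAA, the core bound by the myeloid factor PU.1, or to TTGCNNAA, a form of the C/EBP site.
TLR6: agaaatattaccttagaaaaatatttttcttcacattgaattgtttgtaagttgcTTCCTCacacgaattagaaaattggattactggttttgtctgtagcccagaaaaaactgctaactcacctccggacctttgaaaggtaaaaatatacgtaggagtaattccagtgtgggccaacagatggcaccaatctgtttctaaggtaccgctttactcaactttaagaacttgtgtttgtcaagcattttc
TLR8: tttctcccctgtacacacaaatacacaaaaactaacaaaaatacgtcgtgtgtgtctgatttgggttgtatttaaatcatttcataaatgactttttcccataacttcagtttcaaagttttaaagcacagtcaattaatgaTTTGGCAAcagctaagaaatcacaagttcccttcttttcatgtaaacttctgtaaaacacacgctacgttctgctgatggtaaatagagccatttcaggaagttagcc
TLR5: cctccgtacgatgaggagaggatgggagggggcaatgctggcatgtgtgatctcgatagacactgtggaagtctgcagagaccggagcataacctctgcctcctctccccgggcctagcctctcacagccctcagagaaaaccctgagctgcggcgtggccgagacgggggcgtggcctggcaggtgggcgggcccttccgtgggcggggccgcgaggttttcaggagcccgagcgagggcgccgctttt
TLR6 had 1 match to GAGGAA, on the opposite strand, at position -195 from the gene start, and TLR8 had 1 match to TTGCNNAA, also on the opposite strand, at position -108. TLR5 had no match. Among all 35116 windows of this length, 23.6% held GAGGAA and 9.05% held TTGCNNAA, so such matches are common. No window of the 7 analysed members with an entry held TGANTCA (AP-1), the NF-kB motif or TGTGGT (RUNX), which 6.57%, 0.527% and 11.0% of all windows held. TLR4 had 4 matches to GAGGAA, MYD88 had 1, and TLR2 and IRAK3 had none. The windows of TLR4, MYD88, TLR2 and IRAK3 end at the RefSeq start. The GENCODE v44 starts given below for these genes lie within the windows, so part of each window is inside the gene as GENCODE places it. TLR1 and LY96 had no entry. No 2 matches in these windows overlapped, and a match is a description of letters, not a site. The TLR6 window lies directly before a 57-base exon (chr4:38856761-38856817) that GENCODE v44 places at the start of both TLR6 transcripts and of 1 of the 10 TLR1 transcripts.

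To ask which of these genes differed between the groups, each was tested by limma on log2(TPM + 1) among 16817 genes, and called at an adjusted p under 0.05. Only TLR6 was called, and it was higher in sh-ANP32B. Thus 1 of the 9 genes was called, where 3.32% of all genes tested were called in either direction, 2.14% were called higher and 1.18% lower. All 9 had a positive log2 fold change, as did 57.9% of all genes, and their median was 0.37 against 0.083 over all genes. Of the 9, TLR1 and TLR8 reached 1 TPM only in the sh-ANP32B samples and so entered the test only through the group in which they were high, and TLR5 was under 1 TPM in NC replicate 1. The other 6 reached 1 TPM in every sample. These counts are therefore descriptions, not support for a common direction. Bulk values cannot tell a change in the share of cells that express a gene from a change in RNA per cell.

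**Figure D1:**
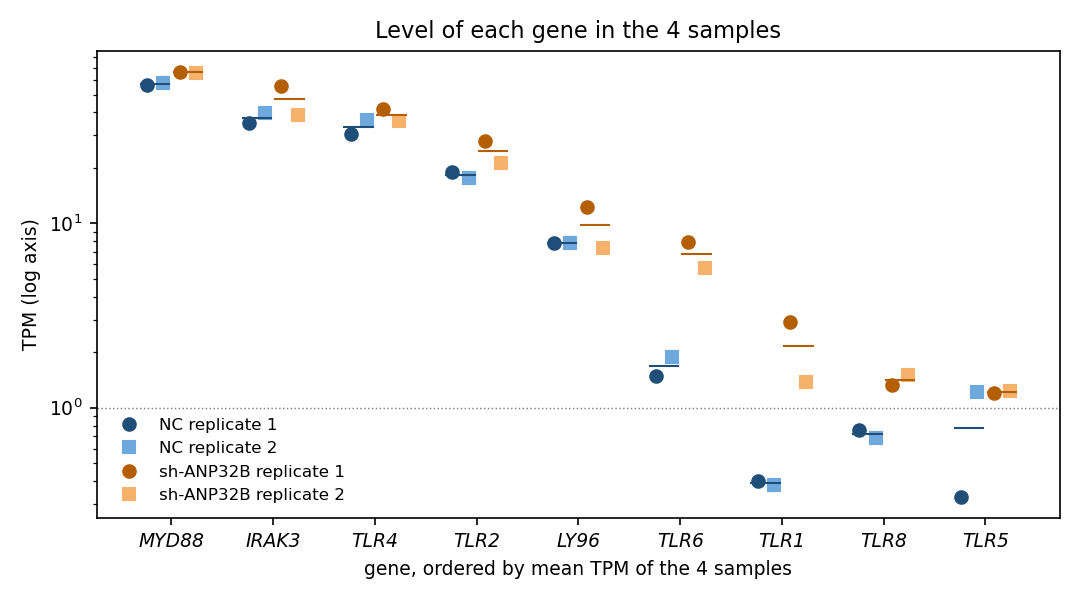
TPM of each gene (log axis) in the 4 samples, ordered by mean level, with points for samples, horizontal lines for group means and a dotted line at 1 TPM. Both sh-ANP32B samples of TLR6 (5.74 and 7.93 TPM) lie above both NC samples (1.48 and 1.88 TPM), whereas IRAK3, TLR4, LY96 and TLR5 overlap between the groups.

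Among the receptors for bacterial lipopeptides, TLR6 was higher in sh-ANP32B. TLR6 (ENSG00000174130), on the minus strand of chromosome 4 from 38822897 to 38856817 of hg38, had 1.48 and 1.88 TPM in NC replicates 1 and 2 against 7.93 and 5.74 TPM in knockdown replicates 1 and 2. The groups did not overlap, and the lower sh-ANP32B sample was well above the higher NC sample. The mean rose from 1.68 ± 0.283 to 6.84 ± 1.55 TPM (SD, n = 2 each), 4.07 times the NC mean. On the log2(TPM + 1) scale this was a change of 1.54 (SE 0.275, 95% interval 0.88 to 2.19, limma adjusted p 0.0440). The added 1 TPM shrinks fold changes of genes at low levels, and that of TLR6 was 1.95 with a pseudocount of 0.1. The call was lost without NC replicate 1 (log2 fold change 1.43, limma adjusted p 0.0606) and without an abundance trend in the variance (limma adjusted p 0.114), while the sign held in all 14 alternative fits.

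TLR1 is the other partner of TLR2. TLR1 (ENSG00000174125), on the minus strand of chromosome 4 from 38790677 to 38856817, had 0.401 and 0.381 TPM in NC against 2.93 and 1.38 TPM in the knockdown. Both NC samples were below 1 TPM and both sh-ANP32B samples above it, but the sh-ANP32B replicates themselves differed by a log2 difference of -0.72 (replicate 2 minus 1). The log2 change of 1.14 (SE 0.377, 95% interval 0.24 to 2.04) had a limma adjusted p of 0.136 and was not called. Without sh-ANP32B replicate 1 it was 0.776, and over the 4 fits without 1 replicate its limma adjusted p ranged from 0.0510 to 0.419.

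The span of TLR6 lies within that of TLR1 on the same strand. Both genes share the 57-base exon described above and further transcript sequence, so some of their reads could be assigned to either gene. Of the 50-base words in the TLR1 transcripts 5.33% also occur in TLR6 transcripts, and of those in the TLR6 transcripts 3.64% occur in TLR1. These are 249 words, more than the 57-base exon alone can hold. The program that assigned reads is not stated in the sources used here, and the part of shared reads in these values was not tested. The ratio of TLR6 to TLR1 TPM was 3.69 and 4.94 in NC, and 2.70 and 4.16 in sh-ANP32B, so it overlapped between the groups.

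TLR2, the common partner of both, was the most abundant of the 3 lipopeptide receptor genes. TLR2 (ENSG00000137462), on the plus strand of chromosome 4 from 153684070 to 153706260, had 18.9 and 17.6 TPM in NC against 28.0 and 21.3 TPM in the knockdown. Both sh-ANP32B samples were above both NC samples, with replicate 1 farther above than replicate 2. The log2 fold change was 0.40 (SE 0.191, 95% interval -0.056 to 0.856, limma adjusted p 0.261). Without sh-ANP32B replicate 2 it was 0.591 with a limma adjusted p of 0.0259, whereas without sh-ANP32B replicate 1 it was 0.209 with a limma adjusted p of 0.376. Without NC replicates 1 and 2 in turn the limma adjusted p was 0.717 and 0.807. In the fits without an sh-ANP32B replicate the NC pair alone sets the spread, and 24.3% (without replicate 1) and 20.7% (without replicate 2) of all genes were called.

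A ratio of levels within a sample does not depend on scaling between samples. The ratio of TLR2 to TLR6 TPM was 12.8 and 9.38 in NC, and 3.53 and 3.70 in sh-ANP32B. The ratio of TLR2 to TLR1 TPM was 47.1 and 46.3 in NC, and 9.55 and 15.4 in sh-ANP32B. Both ratios were lower in each sh-ANP32B sample than in either NC sample, which describes unequal change of the partners, and the difference between their fold changes was not tested. TLR2 remained the most abundant of the 3 in every sample.

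**Figure D2:**
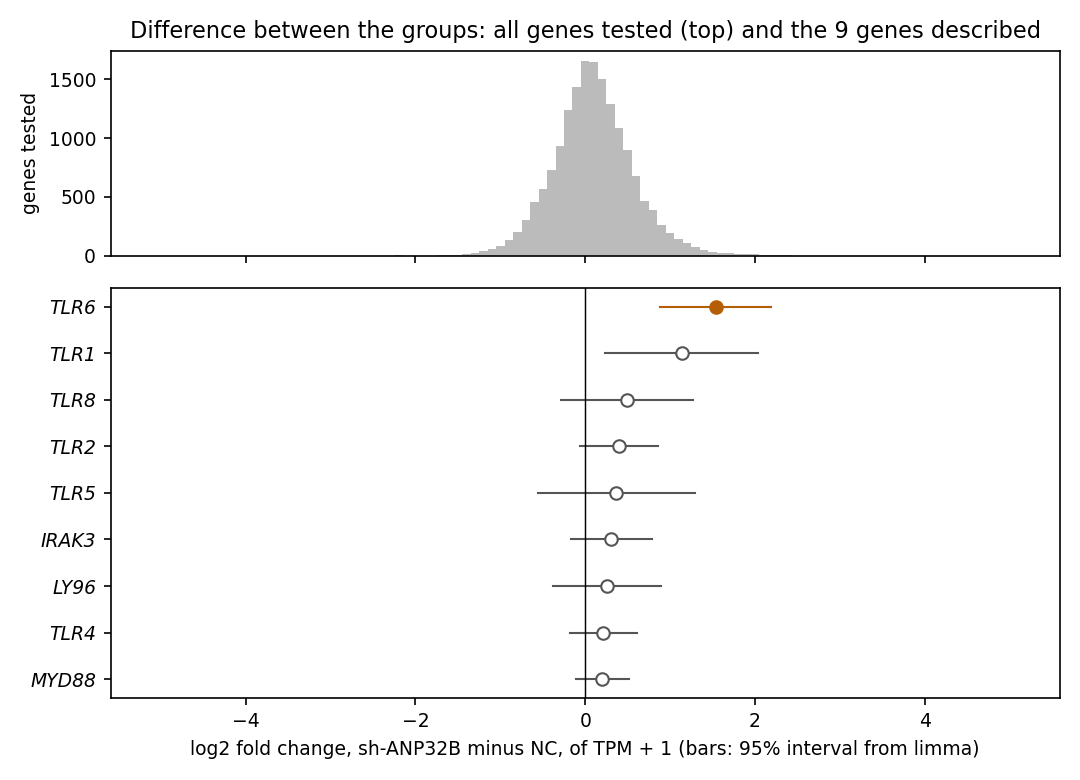
Log2 fold change (sh-ANP32B minus NC, of TPM + 1) of all 16817 genes tested as a histogram (top) and of the 9 genes with 95% intervals from limma (bottom), where the filled point was called. TLR6 at 1.54 and TLR1 at 1.14 lie at percentiles 99.4 and 97.8 of all genes, and the intervals of the other 7 genes include 0.

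The genes of the lipopolysaccharide receptor were expressed in both groups, and no difference passed the test. TLR4 (ENSG00000136869), on the plus strand of chromosome 9 from 117704175 to 117724735, had 30.7 and 36.2 TPM in NC against 41.9 and 36.1 TPM in the knockdown. The groups overlapped, because sh-ANP32B replicate 2 was just below NC replicate 2. The log2 fold change was 0.21 (SE 0.166, 95% interval -0.182 to 0.610, limma adjusted p 0.483), and 0.123 after median-of-ratios scaling. A protein-coding locus of GENCODE v44, ENSG00000285082, spans TLR4 on the same strand, and 5.07% of the 50-base words of TLR4 transcripts occur in its transcripts.

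LY96 (ENSG00000154589), on chromosome 8, encodes the MD-2 subunit that contacts lipopolysaccharide. It had 7.86 and 7.83 TPM in NC against 12.3 and 7.39 TPM in the knockdown. The NC replicates were close together and the sh-ANP32B replicates lay on either side of them. The log2 fold change was 0.25 (SE 0.266, 95% interval -0.380 to 0.890, limma adjusted p 0.617), and without sh-ANP32B replicate 1 its sign turned to -0.077. The ratio of TLR4 to LY96 TPM was 3.91 and 4.62 in NC, and 3.41 and 4.89 in sh-ANP32B, with overlap between the groups.

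TLR5 and TLR8 were the scarcest receptor genes besides TLR1. TLR5 (ENSG00000187554), on the minus strand of chromosome 1 from 223109404 to 223143248, had 0.329 and 1.22 TPM in NC against 1.21 and 1.23 TPM in the knockdown. NC replicate 2 was level with the sh-ANP32B samples and only NC replicate 1 was lower. The log2 change of 0.37 (SE 0.385, 95% interval -0.551 to 1.29, limma adjusted p 0.617) rested on that replicate, and it was -0.0022 without it and 0.740 without NC replicate 2. TLR8 (ENSG00000101916), on the plus strand of chromosome X from 12906620 to 12923169, had 0.753 and 0.683 TPM in NC against 1.33 and 1.51 TPM in the knockdown. The groups did not overlap, but at this low level the log2 change of 0.49 (SE 0.324, 95% interval -0.280 to 1.27) had a limma adjusted p of 0.406. With a pseudocount of 0.1 the changes of TLR5, TLR8 and TLR1 were 0.808, 0.894 and 2.11, and none was called. The antisense gene TLR8-AS1, which was not analysed here, overlaps TLR8 and the window shown for it.

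MYD88, the shared adaptor, had the highest level of the 9 genes in every sample. MYD88 (ENSG00000172936), on the plus strand of chromosome 3 from 38138552 to 38143024, had 56.6 and 57.8 TPM in NC against 66.3 and 65.5 TPM in the knockdown. Replicates were close in both groups and the groups did not overlap. The difference was small, a log2 change of 0.20 (SE 0.132, 95% interval -0.113 to 0.515, limma adjusted p 0.405), which was 0.079 after GC correction and 0.109 after median-of-ratios scaling.

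IRAK3, the inhibitory kinase family member, was second in level to MYD88. IRAK3 (ENSG00000090376), on the plus strand of chromosome 12 from 66189195 to 66254622, had 35.1 and 39.9 TPM in NC against 55.5 and 39.0 TPM in the knockdown. Only sh-ANP32B replicate 1 was above the NC samples. The log2 fold change was 0.31 (SE 0.201, 95% interval -0.172 to 0.787, limma adjusted p 0.403), and it was 0.557 (limma adjusted p 0.0179) without sh-ANP32B replicate 2 and 0.058 (limma adjusted p 0.795) without sh-ANP32B replicate 1. Without NC replicates 1 and 2 in turn its limma adjusted p was 0.903 and 0.744. RBMS1P1, a processed pseudogene on the opposite strand within IRAK3, had 4.44 and 7.12 TPM in NC against 14.4 and 7.99 TPM in the knockdown, also with replicate 1 the highest. The labels do not say whether counting used strand, so reads of this pair cannot be told apart. The ratio of MYD88 to IRAK3 TPM was 1.62 and 1.45 in NC, within the range of the 1.20 and 1.68 of the knockdown.

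By mean TPM the order in NC was MYD88, IRAK3, TLR4, TLR2, LY96, TLR6, TLR5, TLR8 and TLR1. Of the neighbours in that order, IRAK3 and TLR4, and TLR5 and TLR8, overlapped in their sample values. In sh-ANP32B the order was MYD88, IRAK3, TLR4, TLR2, LY96, TLR6, TLR1, TLR8 and TLR5. There IRAK3 and TLR4, LY96 and TLR6, and TLR1 and TLR8 overlapped. In sh-ANP32B, TLR6 in replicate 1 (7.93 TPM) was above LY96 in replicate 2 (7.39 TPM), but TLR6 was below LY96 within each replicate. In NC the higher value of TLR6 (1.88 TPM) was far below the lower value of LY96 (7.83 TPM). Levels of the 6 receptor genes summed to 52.6 and 58.0 TPM in NC, and to 83.3 and 67.2 TPM in sh-ANP32B, with TLR4 and TLR2 contributing most.

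The groups did not overlap in 5 of the 9 genes, all higher in sh-ANP32B (TLR6, TLR1, TLR8, TLR2 and MYD88), whereas over all genes the groups did not overlap in 54.6%, of which 33.2% of all genes were higher and 21.4% lower. The study took DESeq2 results with a change past 0.5 on the log2 scale and p under 0.05, without saying whether p was adjusted. Here these thresholds, called the study's criterion, were applied to the limma fit of log2(TPM + 1), with p before adjustment. By them 2 of the 9 genes passed (TLR6 and TLR1), against 18.6% of all genes in either direction, 12.1% higher and 6.55% lower. Without the filter-dependent genes TLR1, TLR8 and TLR5, groups did not overlap in 3 of 6 genes and 1 passed the criterion. The shares by the criterion and by overlap in either direction are near those of all genes.

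Differences between the replicates of sh-ANP32B varied with GC content. Over 15427 genes, replicate 2 minus replicate 1 on the log2 scale tracked transcript GC content at a Spearman rho of 0.577 in sh-ANP32B and -0.206 in NC. Points here are genes of the same libraries, and the values describe those libraries. Of the 9 genes, 8 had transcripts between 34.3% and 44.2% GC and MYD88 had 53.9%. Among the 5141 genes tested between 34% and 44% GC, sh-ANP32B replicate 2 lay below replicate 1 in 83.4%, with a median log2 difference of -0.29. LY96, IRAK3, TLR2, TLR1, TLR6 and TLR4 shared this direction, with log2 differences of -0.66, -0.50, -0.38, -0.72, -0.41 and -0.21. TLR8 (0.10), TLR5 (0.015) and MYD88 (-0.017) did not clearly do so. After a correction for GC content in each sample, TLR6 had a log2 change of 1.51 (limma adjusted p 0.0120) and remained the only one called, and TLR1 and TLR2 had 1.13 and 0.395 (limma adjusted p 0.0707 and 0.0731). With this correction 16.5% of all genes were called, against 3.32% without it.

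**Figure D3:**
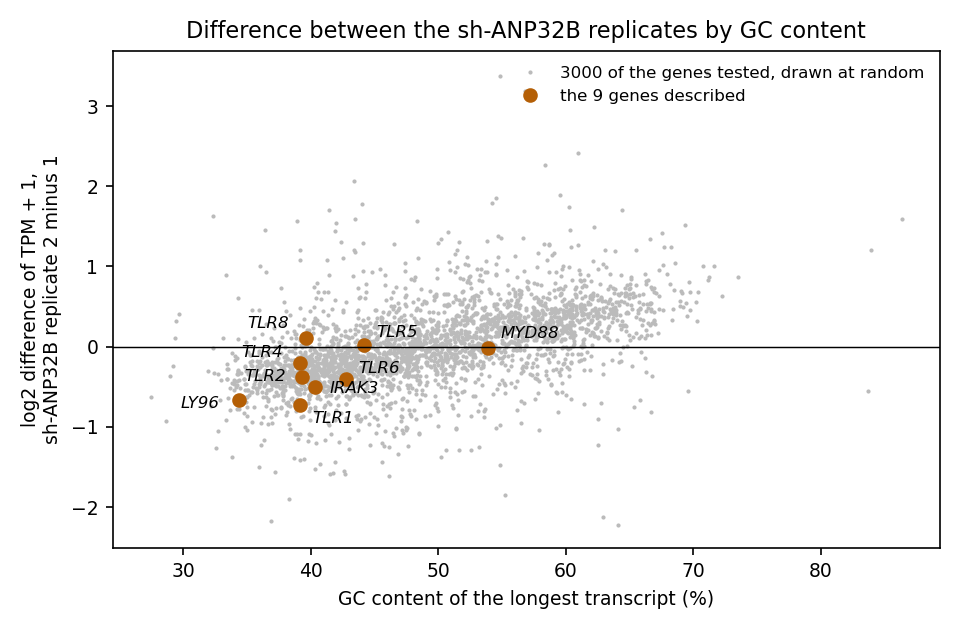
Log2 difference of TPM + 1 between the sh-ANP32B replicates (2 minus 1) against the GC content of the longest transcript (%), for a random draw of the genes tested (grey) and the 9 genes (orange). Grey points rise with GC content, and LY96 at 34.3% GC and TLR1 at 39.1% GC lie lowest of the 9.

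Genes that act with these receptors were taken from lists by role, 65 genes in all, of which 52 were analysed and 50 tested. Of the 50, 3 were called higher and 1 lower, and their median log2 fold change was 0.25. The same 3.32% of all genes called is the background for these counts. Of the other receptors, TLR9, an endosomal DNA sensor, had 3.27 ± 0.122 TPM in NC against 4.32 ± 0.607 TPM in the knockdown (SD, n = 2 each), a log2 change of 0.31 (limma adjusted p 0.495) that was 0.083 after GC correction. TLR3, TLR7 and TLR10 were not analysed here.

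Of the 5 tested receptor partners and trafficking genes, 1 was called. CD180, a receptor-like protein related to TLR4 that was first described in B cells, had 18.9 and 17.2 TPM in NC against 8.69 and 7.45 TPM in the knockdown. Both sh-ANP32B samples were below both NC samples, and CD180 fell by 1.07 on the log2 scale (SE 0.190, limma adjusted p 0.0440). Its secreted partner MD-1, the product of LY86, was named after its values were seen. LY86 had 48.0 and 55.0 TPM in NC against 81.9 and 82.6 TPM in the knockdown, and its log2 change of 0.67 (SE 0.141, limma adjusted p 0.0565) was not called. Its limma adjusted p ranged from 0.00483 to 0.505 over the 4 fits without 1 replicate, under 0.05 in those without an sh-ANP32B replicate and over it in those without an NC replicate. These members of a complex thus had fold changes of opposite sign, whereas TLR4 and LY96, the corresponding pair, both overlapped between groups.

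None of the 4 TIR adaptors tested was called. TICAM1, the adaptor of the MYD88-independent branch, had 12.4 ± 1.19 TPM in NC against 12.8 ± 3.92 TPM in the knockdown (SD, n = 2 each), a log2 change of 0.021 (limma adjusted p 0.974) whose sign flipped under the scaling alternatives. TICAM2, which links TLR4 to TICAM1 and was named after its values were seen, had 2.87 and 2.90 TPM in NC against 0.283 and 1.30 TPM in the knockdown, below NC in both, a log2 change of -1.18 (SE 0.375, limma adjusted p 0.127, and from 0.0225 to 0.399 without 1 replicate). Of the 14 signalling kinases and ligases, 1 was called. IRAK2, a kinase of the MYD88 complex, had 17.9 and 17.3 TPM in NC against 35.4 and 38.4 TPM in the knockdown. It was higher in both sh-ANP32B samples, a log2 change of 1.03 (SE 0.155, limma adjusted p 0.0359).

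Of the 8 negative regulators tested, none was called and 7 lay above NC in both sh-ANP32B samples, where 33.2% of all genes did. INPP5D, a lipid phosphatase and the most abundant of them, had 168 ± 8.55 TPM in NC against 228 ± 8.08 TPM in the knockdown (SD, n = 2 each), a log2 change of 0.44 (limma adjusted p 0.0992, and from 0.00598 to 0.726 without 1 replicate) that was 0.274 after GC correction. Of the 5 IRF transcription factors none was called, and IRF8, a factor of monocyte and dendritic cell development, had 221 ± 1.31 TPM in NC against 226 ± 19.4 TPM in the knockdown (SD, n = 2 each), a log2 change of 0.029 (limma adjusted p 0.920) that turned negative under the scaling alternatives. Among 8 other pattern recognition receptors none was called and 5 lay above NC. STING1, the adaptor of cytosolic DNA sensing, had 85.3 ± 1.55 TPM in NC against 92.4 ± 14.0 TPM in the knockdown (SD, n = 2 each), a log2 change of 0.11 (limma adjusted p 0.726) that turned negative after GC correction.

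Among genes that Toll-like receptor signalling induces, 5 of 11 were analysed and 2 were called, both higher, where 2.14% of all genes were called higher. The other 3 overlapped between the groups. These were CXCL2, CCL3 and IL1RN, with log2 changes of -0.255, 0.224 and -0.0859. IL1B, an inflammatory cytokine, had 1.59 and 0.855 TPM in NC against 5.05 and 6.62 TPM in the knockdown, a log2 change of 1.63 (SE 0.304, limma adjusted p 0.0455). CXCL8, a neutrophil chemokine, had 26.2 and 32.6 TPM in NC against 68.4 and 54.2 TPM in the knockdown, a log2 change of 1.04 (SE 0.185, limma adjusted p 0.0440). Both genes were above NC in each sh-ANP32B sample. The call of IL1B was lost with a pseudocount of 0.1 and after median-of-ratios and upper-quartile scaling (limma adjusted p 0.0539, 0.0512 and 0.0510). Without NC replicate 1 the calls of CD180, IRAK2 and CXCL8 were lost (limma adjusted p 0.189, 0.0897 and 0.174), and without NC replicate 2 those of CD180, IRAK2 and IL1B (limma adjusted p 0.114, 0.120 and 0.0926). Without the abundance trend none of these calls held.

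**Figure D4:**
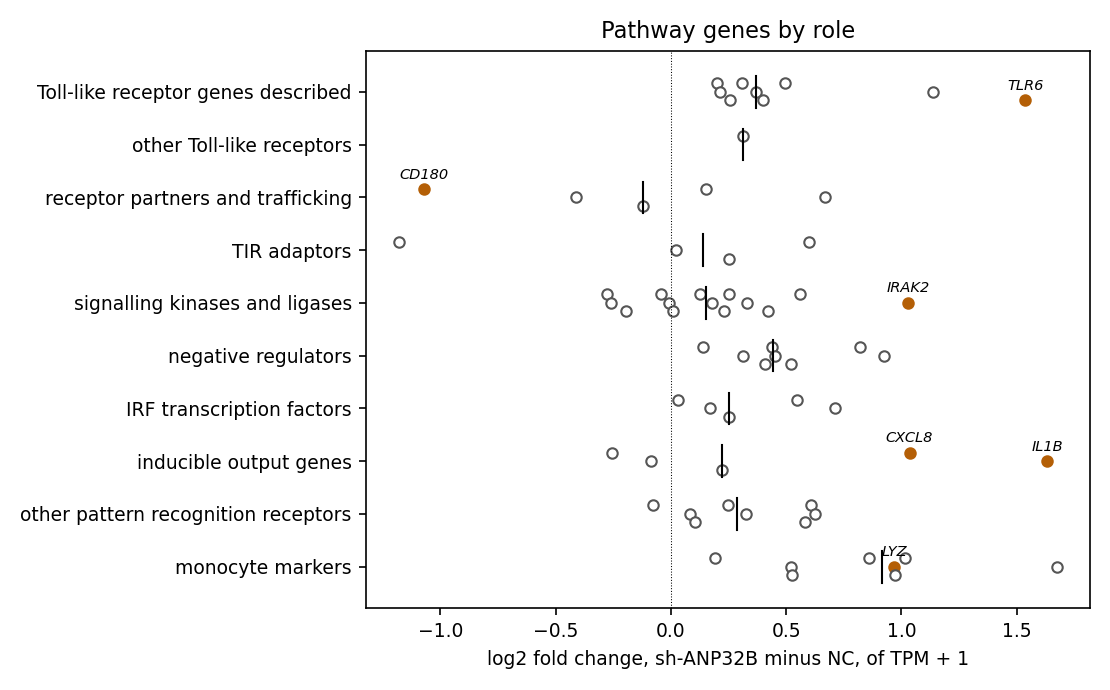
Log2 fold change (sh-ANP32B minus NC, of TPM + 1) of each gene tested, by role, with filled and named points for genes called and a vertical bar at the median of each row. CD180 at -1.07 is the called gene on the left, and IRAK2, CXCL8 and IL1B lie above 1.

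Toll-like receptors are carried by monocytes, and markers of monocytes were examined in the same samples. Of 11 monocyte markers 8 were analysed, 7 of these lay above NC in both sh-ANP32B samples and 1 was called, with a median log2 fold change of 0.91. Over all genes tested, 33.2% lay above NC without overlap and 2.14% were called higher. Their summed level was 766 and 818 TPM in NC against 1534 and 1578 TPM in the knockdown, most of it from LYZ. LYZ, which encodes lysozyme, rose from 683 ± 19.4 to 1338 ± 31.0 TPM (SD, n = 2 each), a log2 change of 0.97 (SE 0.118, limma adjusted p 0.0281), and its call was lost without NC replicate 1 and without NC replicate 2 (limma adjusted p 0.105 and 0.0789). None of the 8 was listed at 0, and FCN1, VCAN and CD163 were not analysed here. SPI1, which encodes PU.1, had 250.6 and 241 TPM in NC against 301 and 364 TPM in the knockdown, a log2 change of 0.43 (limma adjusted p 0.131, and from 0.00178 to 0.712 without 1 replicate) that was 0.163 after GC correction. SPI1 was listed with the Kasumi-1 and blast markers, though PU.1 is a myeloid factor. The genes analysed from that list, KIT, CD33, RUNX1, RUNX1T1 and SPI1, also all lay above NC, 5 of 5, and none was called. Of these RUNX1T1, the fusion partner gene, had 17.6 and 15.6 TPM in NC against 31.2 and 26.8 TPM in the knockdown, with no overlap (log2 change 0.77, SE 0.173, limma adjusted p 0.0632), and it passed the study's criterion. It was chosen after its values were seen. The part of any of these in the difference in TLR6 was not tested.

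**Figure D5:**
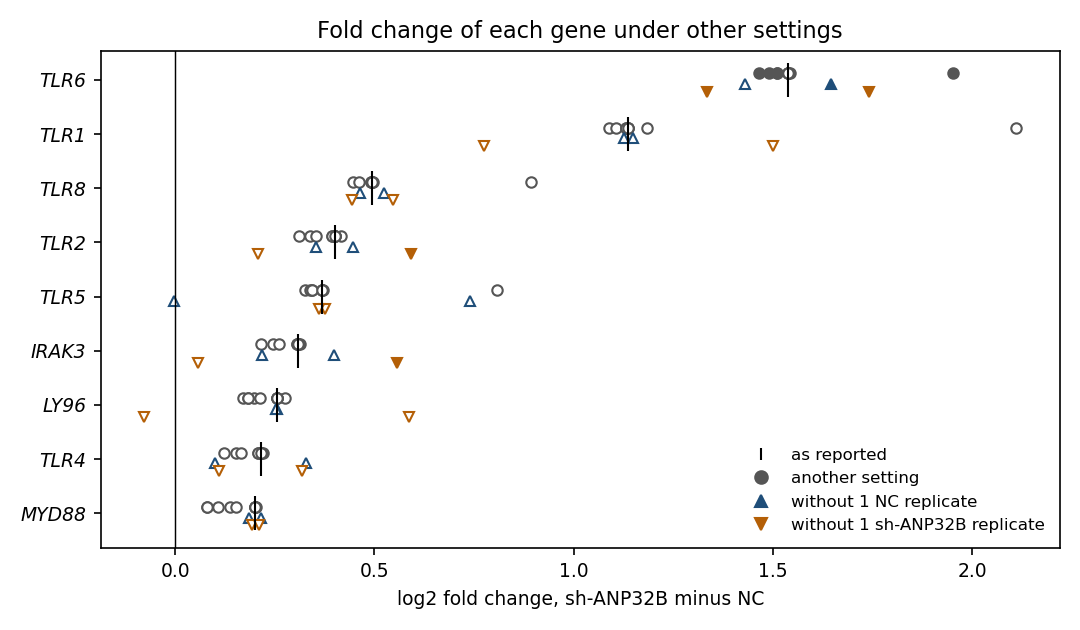
Log2 fold change (sh-ANP32B minus NC) of each of the 9 genes as reported (bars), under other settings (circles) and without 1 replicate (triangles), filled where the adjusted p was under 0.05. TLR6 stays between 1.33 and 1.95, whereas the value of LY96 without sh-ANP32B replicate 1 lies at -0.077.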

How the data were processed

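RNA of 2 NC and 2 sh-ANP32B Kasumi-1 samples was sequenced. The submitters' processing notes name HISAT2 2.0.5 and hg38. The deposited values are TPM made by the authors, a unit identified from the column sums, and the program that made them, its annotation and its filters are not given in the sources used here. No row of the table had a mean under 0.500 TPM. Of 18567 gene IDs, 16986 were found in GENCODE v44 (hg38). TPM keeps no depth, so count tests, counting intervals and floors were not applied.

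The 16817 genes that reached 1 TPM in 2 or more samples were compared by limma 3.58.1 (R 4.3.3) with an abundance trend on log2(TPM + 1). P-values were two-sided, with Benjamini-Hochberg adjustment over all genes tested. An exact permutation test of 2 against 2 cannot go below p = 0.333, so none was run, and limma's p-values rest on variance shared across genes. GC content was that of the longest transcript. The fit was tested on simulated data, where it recovered 51.8% of genes given a log2 change of 1 and 91.9% of those given 2. A gene that was not called may therefore still differ. Figures used Python 3.11.15 and matplotlib 3.10.9.

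The members and lists were chosen with earlier results of these data known, and no p over a list is given. All members were named. Of each list, called genes without overlap were named (at most 3), or otherwise the gene with the highest mean TPM. The gene so named from the lymphoid list is not reported here. Alternatives were other pseudocounts, filters and scalings, GC correction, a replicate block, no trend, and leaving out each replicate.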

Additional observations from a re-analysis of the deposited data

How the results depend on the processing

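TLR6 had a positive log2 fold change between 1.47 and 1.95 in 10 alternatives and was called in 9 of them, and between 1.33 and 1.74 in the 4 fits without 1 replicate, called in 3. ANP32B lay between -3.14 and -3.04 in the 10 alternatives, and its call was lost without the abundance trend (-3.04, limma adjusted p 0.0929). Without 1 replicate it lay between -3.20 and -2.88. The number of the 9 genes called was 1 in 9 alternatives and 0 without the abundance trend, where 0 of all genes were called and 3701 had an unadjusted p under 0.05, and it ranged from 0 to 3 without 1 replicate. Those passing the study's criterion ranged from 1 to 5 without 1 replicate. In the fits without 1 replicate, the number of all genes with an unadjusted p under 0.05 moved as well. The share of all genes passing the criterion in those fits is not given, so these counts have no background. When 1 TPM was required of every sample, which left 6 of the 9 tested, 1 passed the criterion and 3 did not overlap.

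All genes called, 559 as reported, were 2542 after GC correction, 1473 under the replicate block, 1746 under both and 0 without the trend, and between 273 and 4079 without 1 replicate. Higher and lower calls, 360 and 199 as reported, were 230 and 288 with median-of-ratios scaling and 1174 and 1368 with GC correction. Pathway genes called, 4 as reported, were 12 after GC correction, 8 under the replicate block, 9 under both and 0 without the trend, and between 1 and 22 without 1 replicate. Where 1 replicate is left out, the lone sample of its group is assumed to vary like the other group, and the larger counts come from fits in which the NC pair alone sets the spread. The causes of the other shifts were not tested.

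Replicate numbers come from sample titles, and nothing ties equal numbers together. Across genes, deviations of same-numbered samples were weakly and negatively correlated (Pearson -0.0925, Spearman -0.168). Points here are genes of the same libraries, so these values cannot tell whether same-numbered samples were handled together, which was not tested. The replicate block leaves 1 residual degree of freedom, so its p-values rest largely on variance shared across genes. With this block TLR6 had a limma adjusted p of 0.000633 and 0 of the other 8 genes was called.

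Fits of the pathway genes named were added after seeing the data. Signs turned for LY96 without sh-ANP32B replicate 1 (-0.077, against 0.586 without replicate 2), TLR5 without NC replicate 1 (-0.0022, against 0.740 without NC replicate 2), TICAM1 (-0.065 median-of-ratios, -0.037 upper-quartile, -0.025 without mitochondrial genes, -0.21 with GC correction with and without the block, from -0.27 to 0.32 without 1 replicate), IRF8 (-0.064, -0.034, -0.020 and -0.0066 under the same settings, from -0.058 to 0.12 without 1 replicate) and STING1 (-0.065 with GC correction, from -0.048 to 0.26 without 1 replicate). None of these genes was called. Depth is unknown, so the precision of the genes near 1 TPM cannot be given beyond the spread of 2 samples.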
